A study of Mus musculus with 12 samples.

Results

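The genes described are 4 dual-specificity phosphatase genes, Dusp1, Dusp3, Dusp6 and Dusp10, and the 3 growth arrest and DNA damage genes Gadd45a, Gadd45b and Gadd45g. Their transcripts were followed in the quadriceps of C57Bl/6J mice with 12 oligonucleotide arrays. Every probe set, the group of short oligonucleotides that measures a transcript, was taken whose symbol in the array annotation was one of these 7 genes. This gave 11 probe sets of 22690 on the array, and all 11 were among the 13575 that passed a filter on low signal. The genes were chosen by earlier results of the same arrays, and which comparison chose each gene is not recorded. Lower signals of Gadd45g and Dusp10 in mice given the drug than in mice given vehicle were taken to have entered the choice. So was the lower Dusp1 signal under drug and training than under training alone. For the 7 genes both of these comparisons are therefore given as descriptions, with counts of calls but without p-values. Genes outside the 7 have p-values in them. The remaining comparisons share arrays with these and may have entered the choice too, so their p-values are not independent of it either.

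The design had 4 groups of 3 arrays, each treated for 4 weeks. Mice of the vehicle group stayed sedentary without drug. The GW group, also sedentary, was dosed daily with 5 mg/kg of GW1516, which activates the nuclear receptor PPARδ. The exercise group ran on a treadmill and had vehicle, and the combination group ran and had the drug. Age, sex and the time between the last run and the dissection are not given in the sources used here. RNA of 3 mice was pooled for each array, so a spread between arrays is a spread between pools. Values are signals on a linear scale with arbitrary units, means are given ± SD with n = 3 arrays, and log2 fold changes ± SE come from 1 limma model over all 12 arrays. A probe set counted as called when its p, adjusted by Benjamini-Hochberg over all 13575 probe sets, was under 0.05.

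Mitogen-activated protein (MAP) kinases such as ERK, JNK and p38 are switched on by phosphorylation of a threonine and a tyrosine in the same loop, and dual-specificity phosphatases remove both phosphates. Many of these phosphatase genes are themselves switched on by the kinases that their products silence, which closes a feedback loop. Gadd45 proteins are small acidic proteins without known enzyme activity. They bind a MAP kinase kinase kinase upstream of p38 and JNK, and they bind proteins of the cell cycle and of DNA repair. In skeletal muscle these kinases respond to contraction, stretch and metabolic stress.

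The array medians of signal were 48.3 to 57.2. Most arrays correlated with their own group at least as well as with the others, but combination array 1 (mean r of 0.9129 within its group and 0.9144 outside it) and GW array 2 (0.9159 and 0.921) did not. Results that turn on leaving out either array are given with and without it.

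The stretches just before the transcription starts of Dusp1, Dusp10 and Gadd45g are shown because the results turn on these genes. They are the 250 bases upstream of the start in the RefSeq promoter table for GRCm38.p6, in which all 7 genes had 1 entry each, written in the direction of the gene. The Dusp1 stretch is chr17:26508473-26508722 on the minus strand. The Dusp10 stretch is chr1:184034131-184034380 and the Gadd45g stretch is chr13:51846425-51846674, both on the plus strand. Capitals mark TGACGTC, the cyclic AMP response element without its last base, in Dusp1, with the complete TGACGTCA at the second place. They mark the CCAAT box, CCAAT or ATTGG on the other strand, in Dusp10 and Gadd45g. In Gadd45g they also mark the TATA box, TATAAA.
Dusp1: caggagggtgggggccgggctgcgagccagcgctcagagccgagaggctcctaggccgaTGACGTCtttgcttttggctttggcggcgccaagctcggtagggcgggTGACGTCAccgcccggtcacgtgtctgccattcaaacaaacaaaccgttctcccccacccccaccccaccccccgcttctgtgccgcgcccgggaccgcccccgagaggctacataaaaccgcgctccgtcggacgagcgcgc
Dusp10: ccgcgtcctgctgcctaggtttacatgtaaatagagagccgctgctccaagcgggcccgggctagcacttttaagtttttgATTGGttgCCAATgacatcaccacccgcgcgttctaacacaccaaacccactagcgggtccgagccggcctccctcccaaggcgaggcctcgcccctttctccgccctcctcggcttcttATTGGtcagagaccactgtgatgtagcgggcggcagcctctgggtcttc
Gadd45g: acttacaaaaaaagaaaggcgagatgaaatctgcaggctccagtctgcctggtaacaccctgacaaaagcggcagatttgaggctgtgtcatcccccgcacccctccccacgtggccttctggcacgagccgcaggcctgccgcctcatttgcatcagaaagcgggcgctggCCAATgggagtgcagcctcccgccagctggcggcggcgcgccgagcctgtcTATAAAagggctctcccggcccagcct

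Motifs were searched on both strands of each stretch. The complete element TGACGTCA lay from 143 to 136 bases before the start of Dusp1, and TGACGTC also lay from 191 to 185 bases before it. TGACGTCA was found in 1.55% of the 32851 upstream stretches in the table and, of the 7 genes, in Dusp1 alone. The E-box CACGTG, which overlaps no element marked in capitals, was found in Dusp1, Gadd45b and Gadd45g and in 6.02% of all stretches. CCAAT was found in each of the 7 genes but Dusp1 and in 33.8% of all stretches. TATAAA was found in Gadd45b and Gadd45g and in 12.4%. The AP-1 site TGANTCA, the CArG box and the PPAR response element (a direct repeat) had no match in the 7 stretches, and 6.75%, 1.47% and 0.0335% of all stretches held them. A match is a description of the letters, and no binding was measured here.

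The phosphatase genes come first. Dusp1 encodes a nuclear phosphatase of p38 and JNK and is an immediate early gene, transcribed within minutes of many stimuli. Its probe set 1448830_at (Entrez gene 19252) had signals of 1051, 1067 and 1115 in exercise. They were 519, 448.5 and 690.1 in vehicle, 743, 559 and 500.1 in GW, and 669, 400.4 and 394 in the combination. All 3 exercise arrays lay above the 9 others, a pattern that 0.972% of the probe sets tested had, and the other groups overlapped each other. The order of means was exercise (1077 ± 33.2), GW (601 ± 127), vehicle (552 ± 124) and combination (488 ± 157), and the last 3 did not differ beyond their spread.

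Exercise stood 1.98-fold above vehicle in Dusp1 (log2 0.99 ± 0.20, 95% interval 0.56 to 1.42), which did not pass over all probe sets (limma adjusted p = 0.131). The call was made when combination array 1 was left out of the fit (adjusted p = 0.02), with array weights (0.0327) and with the compared groups alone (0.0246). Over the 22 alternative settings the adjusted p ran from 0.02 to 0.408, and the direction held in all 22. The combination lay below exercise with a log2 fold change of -1.19 ± 0.20, a ratio of 0.439, and the groups did not overlap. Over the 22 alternatives it ran from -1.44 to -1.06. The interaction, which sets the drug effect under training against the drug effect at rest, was -1.31 ± 0.29 (adjusted p = 0.404, rank 12 of 13575 by p). It was called in 1 of 21 alternatives, that without combination array 1 (-1.56, limma adjusted p = 0.036), and the adjusted p ran up to 0.794 in the others. Signals on the exercise and combination arrays may have entered the choice of Dusp1, so these p-values and the rank are not independent of the choice.

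**Figure D1:**
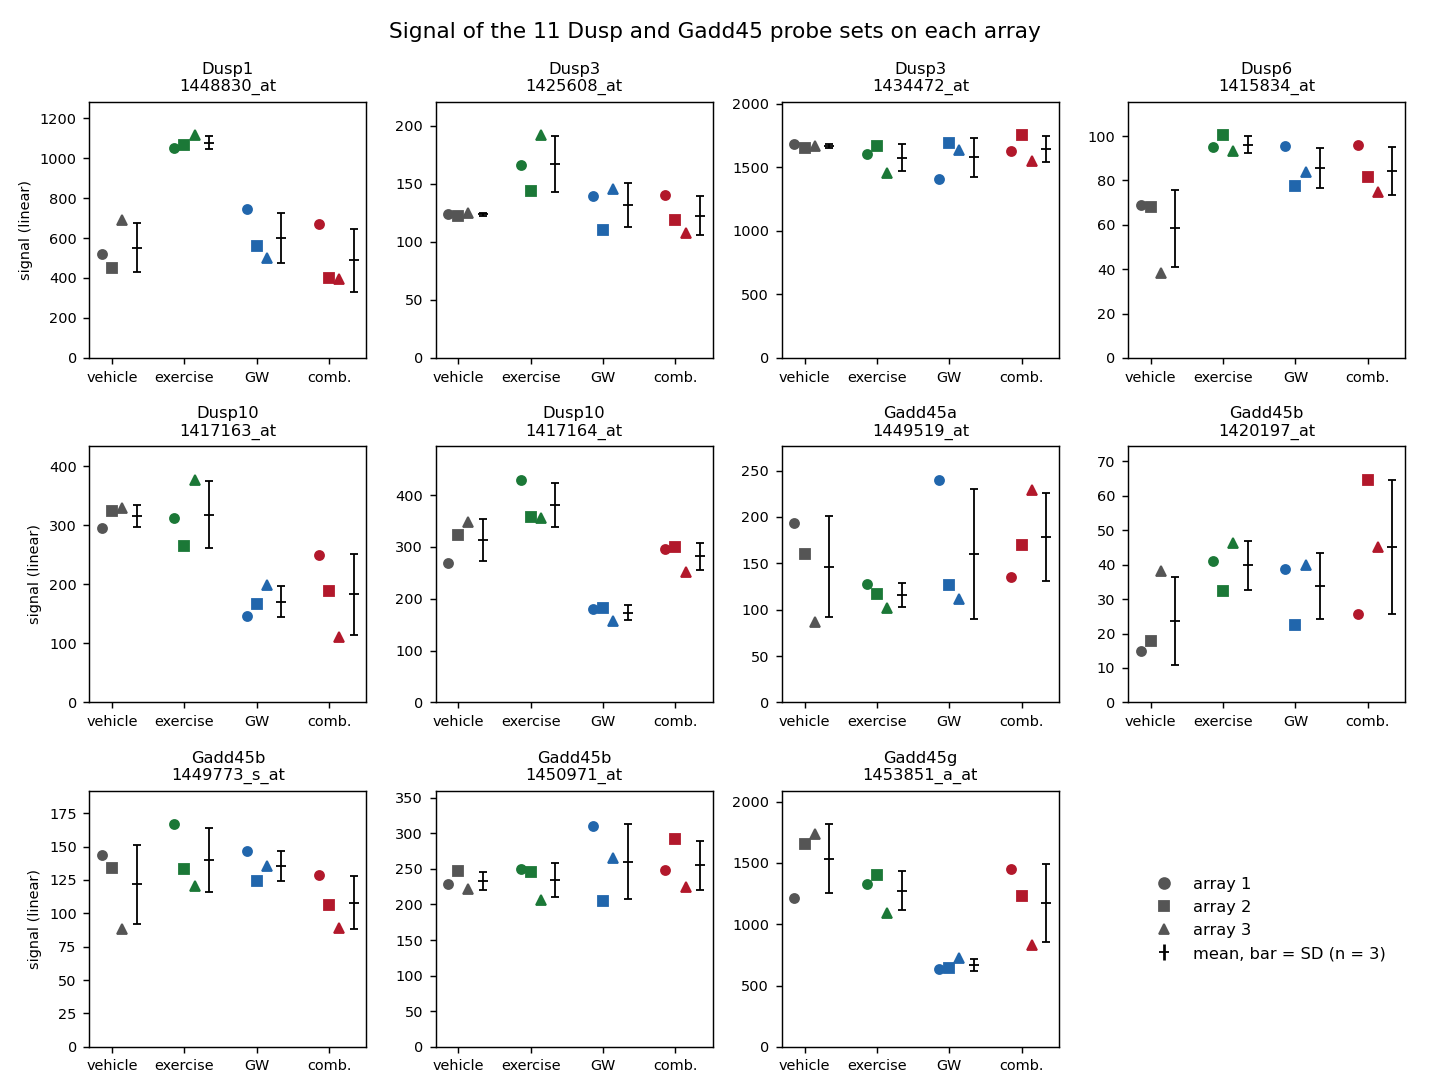
Linear signal of each of the 11 probe sets on the 12 arrays, by group (comb. is the combination), with symbols for arrays 1 to 3 and the mean ± SD of n = 3 arrays beside them. Each axis starts at 0, and levels are not comparable between panels. Dusp1 is highest on the 3 exercise arrays (1051 to 1115), and Gadd45g (633 to 722) and Dusp10 in probe set 1417164_at (157 to 182) are lowest on the 3 GW arrays.

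Dusp1 and the early genes Egr1 and Fos had their highest means in exercise, but the order of the other groups differed. Dusp1 had its lowest mean in the combination (488). There Egr1 had its highest mean after exercise (191, beside 110 in GW and 74 in vehicle), and so had Fos (197, beside 57.4 and 50.6). Within groups the signals did not go together on every array. Egr1, an immediate early transcription factor gene, had signals of 794, 869 and 937 in exercise and 414, 96.4 and 61.8 in the combination. In vehicle they were 85.3, 57.9 and 78.7, and in GW 192, 59.8 and 79.1. Combination array 1, which had the highest Dusp1 signal of its group (669), also had the highest Egr1 signal, and GW array 1 did so in its group (743 and 192). In vehicle the order differed: Dusp1 was highest on array 3 (690.1), where Fos (1423100_at) and Hspa1b (1427127_x_at) were lowest (48.3 and 40.7), while Egr1 was highest on array 1. Fos stood at 460 in combination array 1 and at 92.5 and 39.2 in the others of that group. The heat shock gene Hspa1b stood at 1938.5, 208 and 50.7 in the same 3 arrays, the first of them above all exercise arrays (1370.1 to 1595). Of all 12511 probe sets of other genes with 1 symbol, those most like Dusp1 over the 12 arrays belonged to Egr1 (Pearson r = 0.893), Cd24a (0.877) and Relb (0.871). The range in Dusp1 was small beside that of Egr1: its highest array stood 2.83 times above its lowest.

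**Figure D2:**
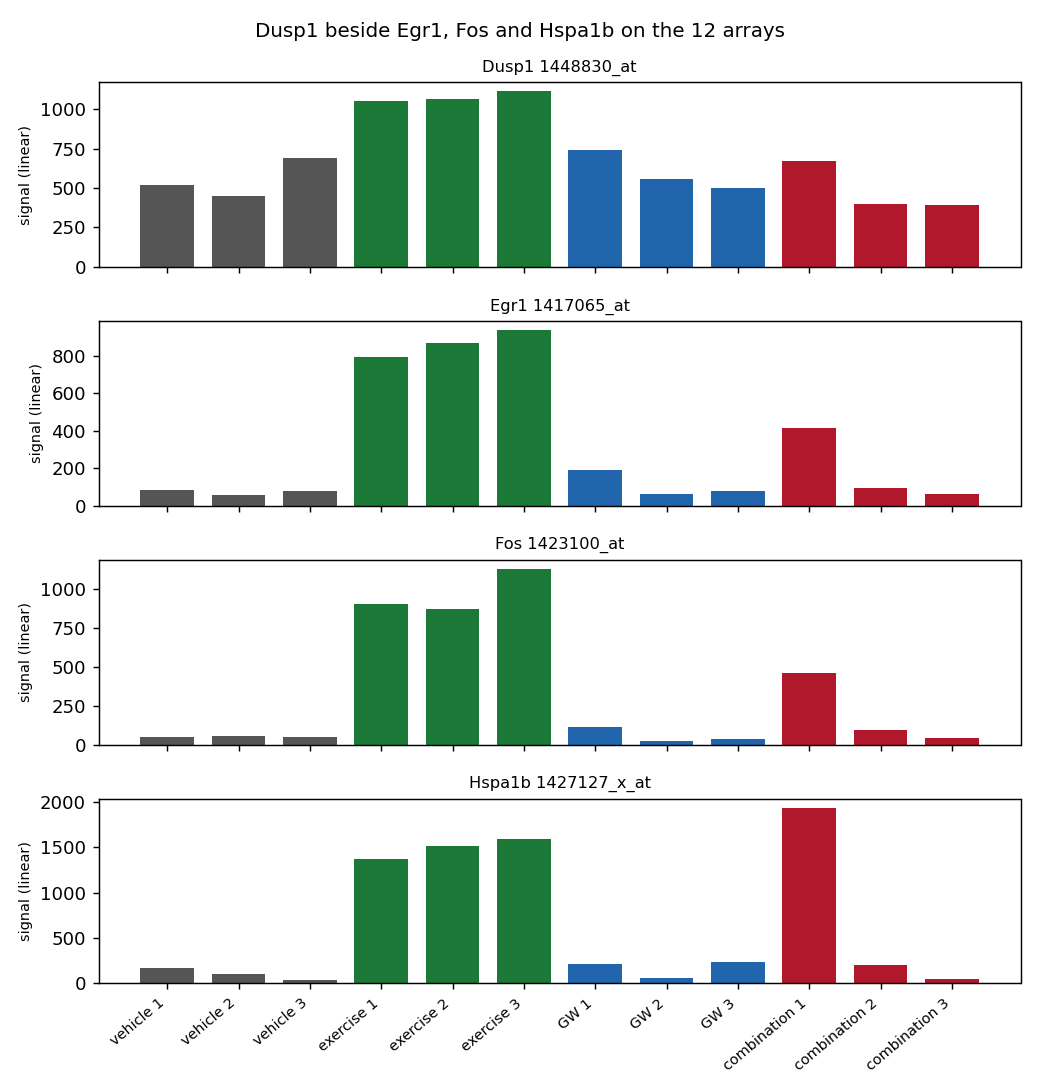
Linear signals of Dusp1, Egr1, Fos and Hspa1b as bars, 1 for each of the 12 arrays, on axes that start at 0. In each gene the 3 exercise arrays stand above the vehicle and GW arrays, and combination array 1 stands above combination arrays 2 and 3 (669 against 400.4 and 394 in Dusp1).

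Other measures moved with the exercise or the combination group as well, and their part in the Dusp1 values was not tested. The beta-actin signal at the 3' end divided by that at the 5' end is a measure of RNA integrity. It was 0.763 to 0.816 in exercise, 0.838 to 1.1 in vehicle, 0.801 to 0.916 in GW and 0.803 to 0.841 in the combination. The same ratio for Gapdh did not separate exercise from vehicle, at 0.896 to 0.94 and 0.89 to 0.906. The summed signal of 10 skeletal muscle fibre markers was 155244 to 164587 in exercise and 130430 to 133905 in vehicle, with 127555 to 161142 in GW and 140318 to 156626 in the combination. The sum of 7 adipocyte markers was 6482 to 7963 in exercise and 7085, 12918 and 15945 in the combination. The combination arrays with the larger sums, 2 and 3, had the lower Dusp1 signals (400.4 and 394). Car3 weighed most in this sum, with a median signal of 5399, beside 1625 for Fabp4 and 336 for Adipoq. Blood markers (6 of 10 with a probe set) summed to 129 to 149 in exercise and 56.0 to 122 in vehicle. All 10 muscle fibre markers, among them Ckm and Acta1, had a probe set and stood above background on at least 1 array. The blood markers Hba-a1, Cd3e, S100a8 and S100a9 had medians below background. The sum of 6 satellite cell and regeneration markers was 675 to 833 in exercise, 546 to 611 in vehicle, 519.6 to 773 in GW and 512 to 737 in the combination. In whole muscle, fewer cells of a type and less RNA per cell cannot be told apart.

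Dusp3 encodes a small phosphatase that lacks the domain by which its larger relatives dock onto MAP kinases. Probe set 1434472_at (Entrez gene 72349) varied least of the 11, from 1407 in GW array 1 to 1754 in combination array 2, a ratio of 1.25. In exercise against vehicle it had a log2 fold change of -0.08 ± 0.09 (95% interval -0.27 to 0.11). Probe set 1425608_at had signals of 166, 143.5 and 192 in exercise and 124, 122 and 125 in vehicle, so that the groups did not overlap. Its log2 fold change was 0.42 ± 0.18 (limma adjusted p = 0.426). In GW it had 139, 109.8 and 146, and in the combination 141, 119 and 108. The profile of 1425608_at over the arrays resembled that of Dusp1 (Pearson r = 0.81, n = 12 arrays, a description of the same hybridisations), while 1434472_at was flat.

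Dusp6 encodes a cytoplasmic phosphatase that acts on ERK and whose gene is a common readout of ERK activity. Its probe set 1415834_at (Entrez gene 67603) had vehicle signals of 68.9, 68.0 and 38.1. The other groups all lay above these, at 95.1, 100.4 and 93.2 in exercise, 95.4, 77.6 and 83.7 in GW and 96.1, 81.6 and 74.8 in the combination. The log2 fold change was 0.77 ± 0.24 in exercise (adjusted p = 0.313) and 0.57 ± 0.24 in the combination (adjusted p = 0.476), neither past the threshold. In GW against vehicle it was 0.60 ± 0.24. Without vehicle array 3 the log2 fold changes were 0.49 in exercise, 0.32 in GW and 0.29 in the combination. The 3 comparisons share the vehicle arrays.

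Dusp10 encodes a phosphatase selective for p38 and JNK. Both of its probe sets (Entrez gene 63953) were designed from the same RefSeq accession. In 1417164_at the GW signals were 180.3, 182 and 157, below the 9 other arrays, as in 0.435% of all probe sets tested. Vehicle had 269, 323.5 and 347.5, exercise had 429.5, 358 and 355, and the combination had 295, 299.5 and 252. In 1417163_at the GW signals were 146, 167 and 198 and the vehicle signals 295, 324 and 329, while exercise had 312.5, 265 and 377. In this probe set the combination was low too, at 249, 188 and 111.5.

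The GW group thus stood below vehicle in both Dusp10 probe sets, by similar amounts: the log2 fold changes were -0.85 ± 0.14 in 1417164_at, a ratio of 0.555, and -0.90 ± 0.23 in 1417163_at, a ratio of 0.536. Over the 22 alternatives they ran from -0.96 to -0.77 and from -1.02 to -0.79. Against vehicle the combination gave different values in the probe sets, -0.15 ± 0.14 in 1417164_at (adjusted p = 0.776) and -0.86 ± 0.23 in 1417163_at (adjusted p = 0.212). The value in 1417163_at was called in 1 of 22 alternatives, that without combination array 1 (-1.12, adjusted p = 0.0433). The difference between the probe sets was not tested. Against exercise the combination lay lower in both without overlap, at -0.43 ± 0.14 and -0.86 ± 0.23. The second of these was -1.12 without combination array 1. Trained mice on the drug stood above sedentary mice on the drug in 1417164_at (0.70 ± 0.14, limma adjusted p = 0.287, rank 5 of 13575 by p), with no overlap. In 1417163_at the value was 0.04 ± 0.23. Low signals on the same GW arrays may have entered the choice of Dusp10, so this p and rank are not independent of the choice.

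The Gadd45 genes follow. Gadd45g is induced by cytokines and by stress, and of the 3 Gadd45 genes it differed most between GW and vehicle. Its probe set 1453851_a_at (Entrez gene 23882) had GW signals of 633, 647 and 722. Vehicle had 1215, 1651 and 1738.5, exercise had 1324, 1401 and 1094, and the combination had 1454, 1232 and 831. All 3 GW arrays lay below the 9 others, as in 0.435% of all probe sets tested, and the other groups overlapped each other. Low signals on these GW arrays may have entered the choice of the gene. The order of means was vehicle (1535 ± 281), exercise (1273 ± 160), combination (1172 ± 316) and GW (667.5 ± 48.0), and neighbours among the first 3 did not differ beyond their spread.

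GW stood below vehicle in Gadd45g by a ratio of 0.439 (log2 -1.19 ± 0.18). Over the 22 alternatives the log2 fold change ran from -1.35 to -1.09. Trained mice on the drug had a log2 fold change of 0.78 ± 0.18 against sedentary mice on the drug (adjusted p = 0.529, rank 15 of 13575), a ratio of 1.71, with no overlap between the groups. Against vehicle the combination had -0.41 ± 0.18 (adjusted p = 0.484) and exercise had -0.26 ± 0.18 (adjusted p = 0.629), and in both the arrays overlapped. The interaction was 1.04 ± 0.25 (limma adjusted p = 0.451, rank 28), so that a different drug effect in trained and in sedentary mice did not pass the threshold. Both ranks rest on the GW arrays, whose low signals may have entered the choice of Gadd45g, so they are not independent of the choice.

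Gadd45g and Dusp10 shared much of their profile. Over the 12 arrays Gadd45g correlated with Dusp10 at r = 0.85 in 1417164_at and at r = 0.74 in 1417163_at. This describes values that share hybridisations and genes that may have been chosen for the same low group. Pfkfb3, a regulator of glycolysis, was among the 3 genes most like each of them, with r = 0.895 for Dusp10 and r = 0.852 for Gadd45g. The other genes most like Dusp10 were Sin3a (0.872) and the clock gene Nr1d1 (0.863), and those most like Gadd45g were Samd10 (0.892) and Auh (0.872).

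**Figure D3:**
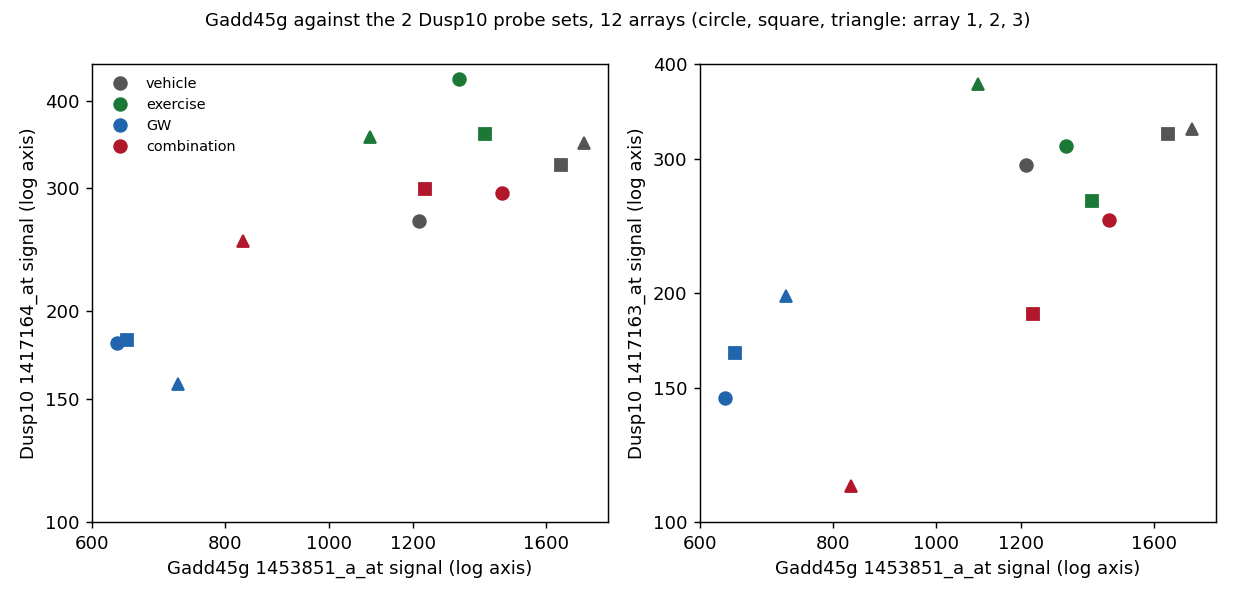
Signal of Gadd45g (x axis) against that of each Dusp10 probe set (y axis) on log axes, 1 point per array, with colours for the groups and symbols for arrays 1 to 3. The 3 GW arrays lie at the low end of Gadd45g (633 to 722), and combination array 3 (831) lies nearest to them, with the lowest Dusp10 signal of all arrays (111.5) in 1417163_at.

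Sums of cell type markers were set beside these values. The 7 adipocyte markers with a probe set, of 9 listed, summed to 6028 to 9129 in GW and 6565 to 7358 in vehicle, and these ranges overlapped. Car3 weighed most in this sum, with a median signal of 5399. In the combination the 2 arrays with the larger adipocyte sums (12918 and 15945, against 7085) had the lower Gadd45g and Dusp10 1417163_at signals of the group. Dusp10 1417164_at did not follow this order, with 295, 299.5 and 252 in combination arrays 1, 2 and 3. Schwann cell and nerve markers (5 of 7 with a probe set) summed to 393 to 402 in GW and 443 to 487 in vehicle, and blood markers to 123 to 180.0 in GW. Ranges of macrophage (9 of 11 markers) and endothelial (8 of 8) sums overlapped between GW and vehicle, at 972 to 1289 and 785 to 1391, and at 943 to 1079.7 and 1056 to 1180.0. Fibroblast sums (7 of 7) ran from 6063 to 6795 and from 5614.5 to 6987.5. Smooth muscle sums (4 of 4) were 557 to 597 in GW and 465 to 548 in vehicle. Nerve, blood and smooth muscle sums thus did not overlap between GW and vehicle, though blood sums nearly met (lowest 122.8 in GW, highest 122.2 in vehicle). The part of these and of the adipocyte markers in the Gadd45g and Dusp10 values was not tested. Among these lists the smooth muscle marker Cnn1 was at or below background on every array. The blood markers Hba-a1, Cd3e, S100a8 and S100a9 had medians below background (6.79, 16.5, 11.3 and 11.3), as did the nerve marker S100b (8.62).

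Gadd45a, a target of p53 and a gene that denervation and fasting induce in muscle, varied within groups more than between them. Its probe set 1449519_at (Entrez gene 13197) had 193, 160 and 86.2 in vehicle, 128, 117 and 102 in exercise, 240.2, 127 and 112 in GW and 135, 170.2 and 229 in the combination. All groups overlapped but exercise and the combination, which lay 0.59 ± 0.31 higher on the log2 scale. The comparisons with vehicle had -0.27 ± 0.31 in exercise and 0.33 ± 0.31 in the combination, with intervals of -0.94 to 0.40 and -0.34 to 1.00.

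Gadd45b, induced by transforming growth factor beta and by NF-kB signalling, had 3 probe sets (Entrez gene 17873). In 1450971_at the signals ran from 205 (GW array 2) to 310 (GW array 1), and in 1449773_s_at from 88.0 (vehicle array 3) to 167 (exercise array 1), with all groups overlapping. The suffix of the latter marks oligonucleotides that can match several transcripts. Probe set 1420197_at was dim, from 14.8 to 64.7, and 3 of its 12 signals were at or below 23.5, the background level that bacterial control probe sets set. Its log2 fold changes against vehicle, 0.87 ± 0.47 in exercise and 0.96 ± 0.47 in the combination, had the largest standard errors of the 11 and did not pass (adjusted p = 0.537 and 0.526). In the brightest of the 3, 1450971_at, the combination had 0.12 ± 0.16 against vehicle, with an interval of -0.22 to 0.47.

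**Figure D4:**
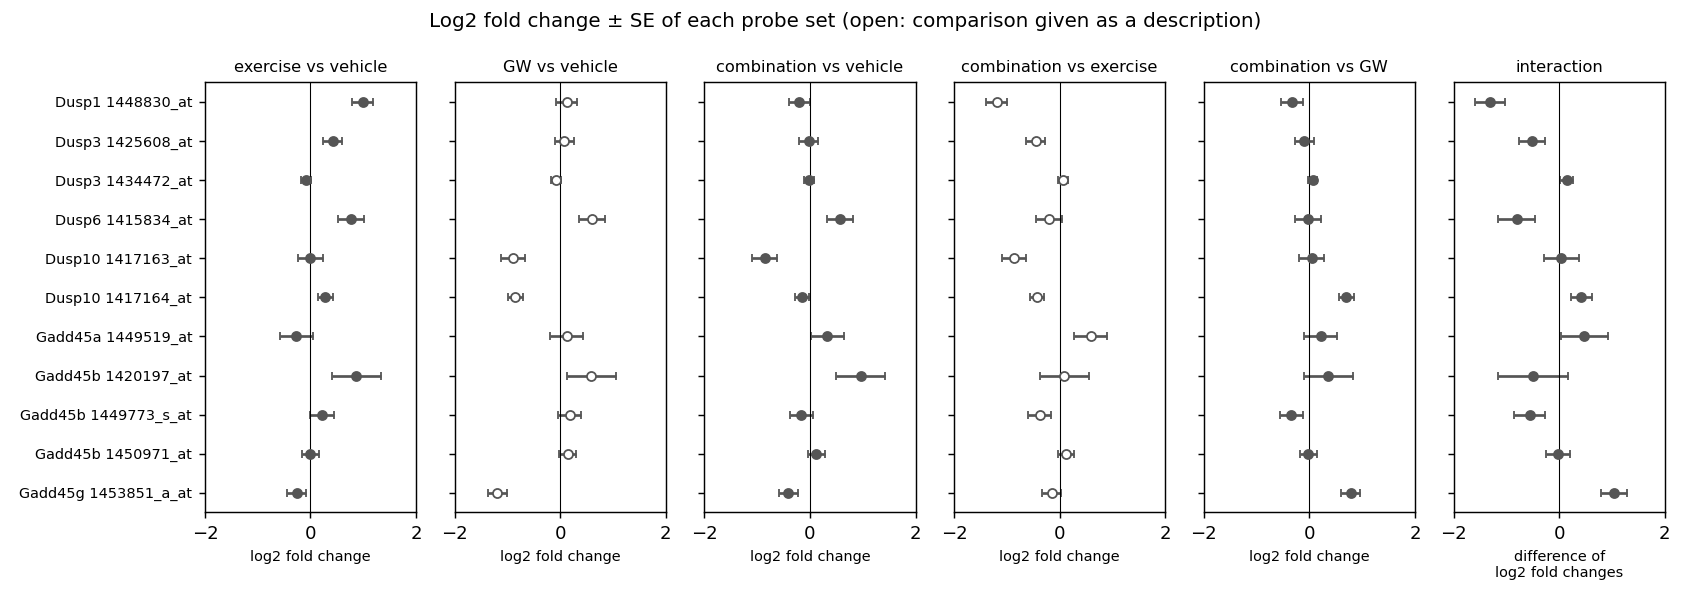
Log2 fold change ± SE of the 11 probe sets in each of 5 comparisons, and the interaction (drug effect under training minus drug effect at rest) in the last panel. Open points belong to the 2 comparisons given as descriptions, and none of the filled points passed the threshold. Dusp1 lies at 0.99 in exercise against vehicle and at -1.31 in the interaction.

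Counted over the 11 probe sets, exercise against vehicle had 0 calls by limma, where 0.0147% of all probe sets were called. At an unadjusted p under 0.05 there were 3, Dusp1, Dusp3 1425608_at and Dusp6, where 10.4% of all probe sets stood. In 4 of the 11 the groups did not overlap, against 17.4% of all. The median log2 fold change was 0.22, beside 0.01 over all probe sets tested. GW against vehicle had 2 calls, where 0.0958% of all were called, and both were lower, where 0.0221% of all were. Since this comparison was taken to have entered the choice of the genes, nothing is read from that count. It became 0 without vehicle array 2 or 3, without GW array 1 or 2 and without an intensity trend. It became 1 without GW array 3, with the compared groups alone and with array number as a block. The groups did not overlap in 4 of 11, where 11% of all did not.

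The combination against vehicle had 0 calls by limma among the 11, where 0.155% of all were called, and 3 at an unadjusted p under 0.05, where 9.98% of all stood. In 2 of the 11 the groups did not overlap, against 16.8% of all. The combination against exercise had 1 call, where 0.162% of all were called, and it was lower, where 0.0663% of all were. In 5 of the 11 the groups did not overlap, where 15.8% of all did not. Since this comparison may have entered the choice, nothing is read from its counts. The count of 1 became 0 without any 1 of the 3 exercise arrays, without combination array 2 or 3 and without an intensity trend, and 2 without combination array 1. The combination against GW and the interaction had 0 calls among the 11 and 0% among all probe sets. At an unadjusted p under 0.05 they had 2 and 3 of the 11, where 5.75% and 6.79% of all stood. In the combination against GW 2 of the 11 did not overlap, where 10.5% of all did not.

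The rest of the pathway was read from gene lists. Of 22 other phosphatases of the Dusp family and their pseudophosphatase relatives, 12 were tested with 18 probe sets, and 0 were called in any of the 6 comparisons by limma. At an unadjusted p under 0.05 there were 0 to 2 of the 18 per comparison, and the medians of the 6 comparisons lay between -0.11 and 0.18. For this list and those below, the share of all probe sets at that level was 5.75% to 10.4% in the comparisons where it is given above. The smallest p belonged to Dusp7, a cytoplasmic ERK phosphatase, in the combination against exercise (log2 0.91 ± 0.20 in 1452097_a_at, adjusted p = 0.1). Its signals were 349, 402 and 516 in the combination and 218, 215 and 231 in exercise. Its other probe sets had 0.31 ± 0.21 (1427416_x_at) and 0.27 ± 0.38 (1460393_a_at) in that comparison. In Dusp22 (1448985_at) the same comparison gave -0.36 ± 0.13 (adjusted p = 0.411), and in the pseudophosphatase gene Styx (1429711_at) GW against vehicle gave -0.52 ± 0.19 (adjusted p = 0.703), beside -0.04 ± 0.15 and -0.01 ± 0.18 in its other probe sets.

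Of 40 MAP kinases and kinases around them, 25 were tested with 46 probe sets, and 0 were called by limma in any comparison, with 1 to 8 at an unadjusted p under 0.05. Medians lay between -0.02 and 0.03. The p38 gene Mapk14 had 0.49 ± 0.17 in exercise against vehicle in 1416704_at (adjusted p = 0.34), beside -0.08 ± 0.10 and 0.32 ± 0.25 in its other probe sets. The JNK gene Mapk9 had 0.71 ± 0.24 in the combination against vehicle in 1421876_at (adjusted p = 0.336), beside -0.16 ± 0.16 and 0.18 ± 0.22. Mapk6 had -0.45 ± 0.15 in the combination against exercise in 1419169_at (adjusted p = 0.388) and 0.39 ± 0.27, of opposite sign, in 1419168_at. The probe sets of a gene thus differed in size or sign of change, and the differences between them were not tested. These arrays measure transcripts, and the phosphorylation state of the kinases was not measured.

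Immediate early genes were the list that stood highest in exercise, as Dusp1 did. Of 32 genes listed 23 were tested with 36 probe sets, and in exercise against vehicle 29 of 36 were positive with a median log2 fold change of 0.45, beside 0.01 over all probe sets. At an unadjusted p under 0.05 there were 15, where 10.4% of all probe sets stood. Of the 36, 1 was called, that of Egr1 (log2 3.57 ± 0.53, limma adjusted p = 0.0469), where 0.0147% of all were. That call held in 10 of 22 alternatives, whose adjusted p ran from 2.84e-06 to 0.269. Leaving out any 1 of the 3 vehicle arrays ended it, as did leaving out any 1 of the 3 exercise arrays. It also ended without array 2 of the combination or array 3 of GW, and under 4 other settings. Fos (1423100_at) had a larger change, 4.25 ± 0.66, with signals of 900.5, 872 and 1127 in exercise. It did not pass (limma adjusted p = 0.053), and was called in 10 of 22 alternatives, whose adjusted p ran from 2.98e-07 to 0.305. The early gene Ier2 (1416442_at) had 1.27 ± 0.25 (adjusted p = 0.131). In the combination against exercise 7 of the 36 were positive with a median of -0.37, beside -0.01 over all probe sets. In that comparison 0 of the 36 were called, where 0.162% of all were.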

How the data were processed

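Quadriceps RNA of 12 pools of 3 mice was measured on 1 array each, in 4 groups of 3. Each probe set has 1 deposited linear signal intensity per array, which the authors computed with MAS5, per the submitters' processing notes, which give no version here. With 2% of values trimmed at each end, every array averaged 200.0, and no value was at or below 0. Raw images and detection calls were not used here.

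Values were log2-transformed without a pseudocount or further scaling. After 64 control probe sets were left out, the upper 60% of 22626 by mean log2 signal, 13575 with a mean signal above 28.4, were tested. Background was the 95th percentile (23.5) of 27 bacterial control probe sets. Symbols came from the platform annotation, in which 20393 probe sets had 1 symbol, 691 several and 1606 none. In R 4.3.3 with limma 3.58.1 all 12 arrays entered 1 linear model with a term per group, leaving 8 residual degrees of freedom. Variances were moderated along an intensity trend, and two-sided p-values were adjusted by Benjamini-Hochberg over the 13575 probe sets. The procedure was tested on simulated data. The number of arrays limits the precision: the median SE of a log2 fold change was 0.21.

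The genes, lists and comparisons were chosen with earlier results of these data known. All 11 probe sets of the 7 genes are reported. From each list the called genes and the 3 with the smallest p were named, and for each gene the 3 most similar in log2 signal at its brightest probe set. Same-numbered arrays of different groups varied together little (correlations from -0.05 to 0.10 over 18 pairs, median 0.01), and no pairing was used in the main fit. Still, 7 of 12 arrays correlated best with their own number. Alternatives were other normalizations, filters, variance models, a pseudocount of 10.5, array weights, fits of the compared groups alone, a replicate block and leaving out each array.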

Additional observations from a re-analysis of the deposited data

How the results depend on the processing

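Counts are of the 11 probe sets past the threshold. In exercise against vehicle the count of 0 became 1 (Dusp1) with array weights and with the compared groups alone, and lay between 0 and 1 with an array left out. In GW against vehicle the count of 2 became 0 without an intensity trend, and lay between 0 and 2 with an array left out. It became 1 with the compared groups alone and with the replicate block, where Dusp10 no longer counted. The main fit used no pairing by array number, although 7 of 12 arrays correlated best with their own number. The replicate block changed no other call on the 11. In the combination against exercise the count of 1 became 0 without an intensity trend, and ran from 0 to 2 with an array left out. In the combination against vehicle and in the interaction it ran from 0 to 1, each 1 without combination array 1, and in the combination against GW it stayed at 0 in all 22 alternatives. No called value changed sign. Over all probe sets, the calls ranged from 0 to 33 in exercise (2 as reported), 7 to 20 in GW (13) and 7 to 94 in the combination (21), each against vehicle, and from 4 to 83 in the combination against exercise (22), 0 to 35 against GW (0) and 0 to 9 in the interaction (0). The causes were not tested. The interaction could not be fitted on compared groups alone, since it uses all 4. With 3 arrays per group and 3 mice per array, small changes were not detectable.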

Other observations

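Growth arrest genes near the Gadd45 family behaved gene by gene. Of 32 p53 targets and growth arrest genes 23 were tested with 35 probe sets, and limma called 0 in any of the 6 comparisons, with 3 to 8 at an unadjusted p under 0.05. Btg2, an antiproliferative early gene that p53 also induces, had signals of 260, 347 and 419 in exercise in 1416250_at and 113, 158 and 149 in vehicle (log2 1.28 ± 0.27, adjusted p = 0.131), and its other probe set had 1.42 ± 0.30 (0.159). Its combination signals were 302, 230 and 139, highest in array 1 as in Dusp1 and Egr1. Phlda3, a p53 target that restrains Akt, had -0.47 ± 0.10 in the combination against exercise (adjusted p = 0.115), and Sesn1, a stress-induced inhibitor of mTORC1, had -0.44 ± 0.13 in exercise against vehicle in 1433711_s_at (0.293) and -0.78 ± 0.33 in its other probe set (0.435).

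Of 20 genes of the NF-kB and cytokine response 10 were tested with 16 probe sets, and limma called 0 in any comparison, with 1 to 3 at an unadjusted p under 0.05. The inhibitor gene Nfkbia had -0.40 ± 0.11 in the combination against vehicle in 1420088_at (adjusted p = 0.216), and its other 3 probe sets had -0.39 ± 0.22, -0.30 ± 0.15 and 0.12 ± 0.19. The transcription factor gene Cebpb had -0.32 ± 0.10 in the combination against GW in 1418901_at (0.728), with signals of 976, 958 and 793 against 1151.5, 1120.2 and 1124, and -0.23 ± 0.13 in its other probe set. Relb, the third most like Dusp1 over the arrays, had signals of 133, 130.3 and 109.7 in exercise and 97.8, 80.1 and 68.4 in the combination (-0.61 ± 0.21, adjusted p = 0.388).

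The genes most like the remaining members over the 12 arrays, as descriptions, were Ednrb (r = 0.959), Mastl (0.938) and Samd4b (0.919) for Dusp6, and Lcmt1 (0.907), Phip (0.880) and Fbxo9 (0.879) for Dusp3. They were Hspb8 (0.884), Polr1c (0.879) and Elovl5 (0.872) for Gadd45a, and Dnajb6 (0.874), Med10 (0.868) and Syne1 (0.849) for Gadd45b.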
